A study of Drosophila melanogaster with 2 samples.

Results

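The mitochondrial ribosomal protein genes of Drosophila melanogaster were taken as all protein-coding genes whose symbol begins with mRpL or mRpS, which gave 73 of the 13968 protein-coding genes of the annotation. Of these, 47 encode proteins of the large subunit (mRpL) and 26 proteins of the small subunit (mRpS). Their promoters were examined in a chromatin immunoprecipitation sequencing (ChIP-seq) experiment on whole embryos of mixed sex aged 0 to 24 h, in 2 biological replicates of a single group. Per the labels, the flies of both replicates were of the strain side-MiMIC-GFP, in which an intronic exon encoding eGFP fuses GFP to the product of an endogenous gene. Chromatin was sonicated to 200 to 800 bp and precipitated through the GFP tag, although the antibody field names Side. The labels call the fusion Side-eGFP and also give Sidpn as the target of the insertion, and they do not settle which of these genes was tagged. Whole embryos mix all cell types and stages of the collection, so the cells in which a site was occupied cannot be told apart.

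Mitochondria carry their own ribosomes, which translate the few proteins encoded by mitochondrial DNA, membrane subunits of the oxidative phosphorylation complexes. The ribosomal RNAs are mitochondrial, but in animals the ribosomal proteins are encoded in the nucleus, made in the cytosol and imported. Many of them, such as mRpL4, mRpL23 and mRpS10, have bacterial homologues of the same number, whereas others, such as mRpS23 and mRpL41, belong to the set added to the ribosome in mitochondria.

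For each gene the best peak was the one of highest signal whose summit lay within 500 bp of an annotated start site. Signal is a value of the authors' peak caller with no stated scale, and it was used here to rank and describe peaks. The deposited lists hold 30000 candidate peaks for each replicate and as many for the pool, and 4097 peaks formed the list past the authors' irreproducible discovery rate (IDR) threshold, called thresholded below. The pooled candidate list is labelled as peaks and background, so a candidate alone is not a called binding site. IDR is a procedure that weighs how well peaks keep their ranks between replicates. The thresholded peaks were the 4097 strongest of the pool, with a lowest signal of 81.5, so a thresholded peak did not have to rank high in each replicate. Sequencing depth is unknown, and the replicate signals are on the scales of separate lists.

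The sequences of 4 thresholded promoters are shown because of the place of the summit or of a motif. At mRpS10 and mRpS23, the strongest of the set, the summit lay in intergenic DNA between the member and a gene transcribed the other way. At mRpS23, mRpL32 and mRpL16 a motif present in 4 of the 23 thresholded promoters lay off the summit. Each promoter run holds the 250 bases before the outermost start site, 5′ to 3′ on the strand of the member, from the Release 6 genome (dm6), and no annotated exon overlapped it. Capitals mark TATCGATA, the DNA replication-related element (DRE), and CACGTG, the E-box. The run for mRpS10 covers chr3R:15229415-15229664 on the plus strand, and the summit is at base 109 of it. For mRpS23 the run before the start covers chr2L:13835073-13835322 on the minus strand, and a further run of 151 bases, chr2L:13835385-13835535, is centred on the summit, which lies farther upstream. The run for mRpL32 covers chr3R:31252622-31252871 on the plus strand with the summit at base 118, and the run for mRpL16 covers chrX:1890006-1890255 on the plus strand with the summit at base 103.
mRpS10 before the start: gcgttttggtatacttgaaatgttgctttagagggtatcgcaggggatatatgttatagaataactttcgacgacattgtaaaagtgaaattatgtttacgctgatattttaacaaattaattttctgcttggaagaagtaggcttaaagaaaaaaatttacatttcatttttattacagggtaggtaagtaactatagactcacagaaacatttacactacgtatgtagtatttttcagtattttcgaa
mRpS23 around the summit: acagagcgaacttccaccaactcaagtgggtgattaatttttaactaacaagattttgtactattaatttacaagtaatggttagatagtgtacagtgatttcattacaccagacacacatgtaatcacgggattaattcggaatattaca
mRpS23 before the start: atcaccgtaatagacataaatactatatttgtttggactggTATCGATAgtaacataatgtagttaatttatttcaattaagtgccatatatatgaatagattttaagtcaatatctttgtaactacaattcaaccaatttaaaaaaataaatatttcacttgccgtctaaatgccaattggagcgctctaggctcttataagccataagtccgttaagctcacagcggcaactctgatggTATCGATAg
mRpL32 before the start: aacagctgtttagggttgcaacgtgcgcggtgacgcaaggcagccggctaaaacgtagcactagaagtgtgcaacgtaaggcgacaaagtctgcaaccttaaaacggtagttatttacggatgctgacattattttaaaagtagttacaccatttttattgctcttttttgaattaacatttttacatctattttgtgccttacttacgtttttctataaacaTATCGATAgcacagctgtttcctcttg
mRpL16 before the start: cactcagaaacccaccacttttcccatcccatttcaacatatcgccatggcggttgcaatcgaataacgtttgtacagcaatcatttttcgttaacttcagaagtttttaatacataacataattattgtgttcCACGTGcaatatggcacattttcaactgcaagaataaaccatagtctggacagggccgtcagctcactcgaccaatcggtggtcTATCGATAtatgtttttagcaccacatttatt

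A candidate peak lay at the promoter of nearly every mitochondrial ribosomal protein gene, but the share of those candidates that were thresholded was close to that of all protein-coding genes. In the pool, 65 of the 73 genes (89.0%) had the summit of a candidate no more than 500 bp from a start site, against 55.5% of all protein-coding genes. A thresholded summit lay at 23 of the 73 (31.5%), against 19.6% of all protein-coding genes. Among the genes with a candidate, 35.4% of the members were thresholded (23 of 65, 95% Wilson interval 24.9 to 47.5%, counting error only), and 35.2% of all protein-coding genes were (2734 of 7757). The thresholded share given a candidate was thus at the background, and the higher share over all 73 genes went with the larger number of members that had a candidate at all. Members had more peaks shared with another gene, and split by sharing their thresholded share was the lower one. It was 41.5% against 44.6% for shared peaks and 8.33% against 27.5% for unshared peaks, the latter over only 12 members. These shares are descriptions, with no test, since genes are not replicates and neighbouring genes can share a peak.

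**Figure D1:**
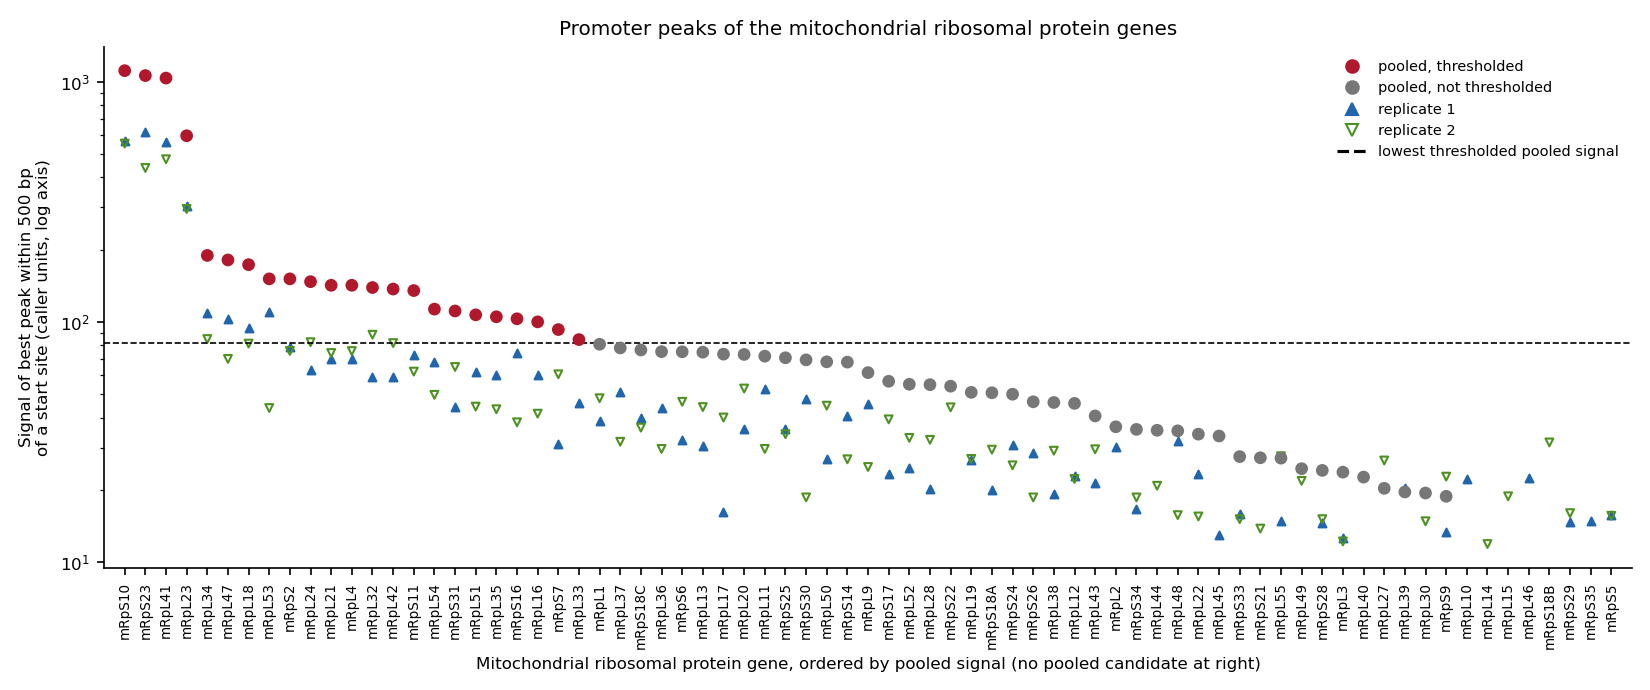
Signal of the best promoter peak (caller units, log axis) of each mitochondrial ribosomal protein gene in the pool (circles), replicate 1 (filled triangles) and replicate 2 (open triangles), with the lowest thresholded pooled signal of 81.5 as a dashed line. A step separates mRpS10, mRpS23, mRpL41 and mRpL23, at 595 to 1110, from the other members, which form a continuous slope from 189 downward.

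Pooled signals of the 65 genes with a candidate had a median of 70.9 and quartiles of 36.6 and 111, close to the median of 60.1 and quartiles of 35.6 and 104 over all 7757 genes with a candidate. The plot of signal by gene shows a step at the top. Only mRpS10, mRpS23, mRpL41 and mRpL23 were above 500, which is 6.15% of the members with a candidate, against 100 genes or 1.29% of all protein-coding genes with a candidate. No other member reached 200, and over all protein-coding genes with a candidate about 91% had signals of 198 or less. With the 1000 strongest peaks, 7.69% of the members with a candidate were in the set, against 9.93% of all protein-coding genes. The cutoff of 500 falls inside the step, so the higher share above it depends on where the cutoff is set. Thresholded members had a median signal of 142 and thresholded protein-coding genes one of 130.

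**Figure D2:**
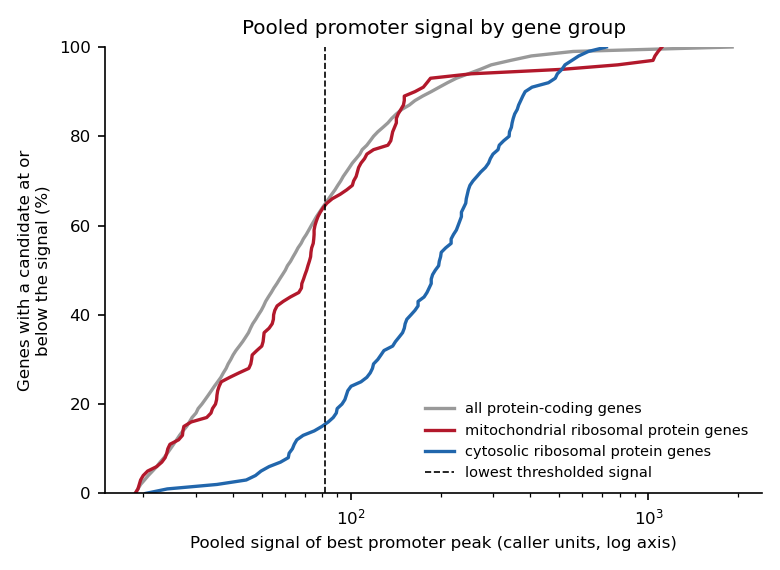
Cumulative share of genes (%, y axis) by pooled signal of the best promoter peak (caller units, log x axis) for the mitochondrial ribosomal protein genes, the cytosolic ribosomal protein genes and all protein-coding genes with a candidate. The mitochondrial set (median 70.9) lies near all protein-coding genes (median 60.1) except at its strongest peaks, and the cytosolic set (median 192) lies to the right.

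The genes for the cytosolic ribosome, which translates nuclear-encoded mRNAs, give another ribosome for comparison. Of 85 cytosolic ribosomal protein genes, 80 had a pooled candidate and 67 of those (83.8%) were thresholded, and the 80 had a median signal of 192. Their summits lay within 100 bp of a start site in 68 of 80 (85.0%), against 25 of 65 (38.5%) for the mitochondrial set and 45.5% for all protein-coding genes. The cumulative plot shows the cytosolic genes shifted to higher signal along nearly its whole length. The mitochondrial genes stay near the background curve, somewhat higher at the median (70.9 against 60.1) and lower at 90% of genes (164 against 186). Their widest departure is at their 4 strongest peaks.

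mRpS10, whose bacterial homologue sits in the head of the small subunit, had the strongest peak of the set. Its gene (FBgn0038307) spans chr3R:15229665-15230516 and the pooled peak chr3R:15229342-15229741. The signal was 564 in replicate 1 (rank 18 of 30000), 552 in replicate 2 (rank 8) and 1110 in the pool (rank 13). The summit lay 142 bp upstream of the start of mRpS10 and 115 bp upstream of the start of Art3, an arginine methyltransferase gene transcribed in the opposite direction, with 257 bp between the starts. In the separate replicates the summit was 136 and 135 bp upstream, so its place between the genes was the same in both.

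mRpS23 (FBgn0260407) had signals of 615 in replicate 1 (rank 14), 437 in replicate 2 (rank 18) and 1059 in the pool (rank 14). Its pooled peak, chr2L:13835270-13835661, had its summit 388 bp upstream of mRpS23, and the replicates put it 379 and 388 bp upstream. CenG1A, a gene for an Arf GTPase-activating protein, starts head to head with it at a distance of 492 bp, and the summit was 104 bp from that start. The summit was thus nearer CenG1A than mRpS23 in the shared interval.

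mRpL41 (FBgn0034001) encodes a large-subunit protein found in mitochondria and not in bacteria. Its signals were 561 in replicate 1 (rank 19), 475 in replicate 2 (rank 13) and 1034 in the pool (rank 16), and its summit lay 141 bp upstream. The only other start within 500 bp of the summit was that of a long noncoding RNA gene, lncRNA:CR44463, 437 bp away and transcribed in the same direction. Of the 4 strongest peaks it was the one without a protein-coding neighbour.

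mRpL23 (FBgn0035335) encodes a protein whose bacterial homologue lines the exit of the nascent peptide tunnel. The signal was 304 in replicate 1 (rank 92), 295 in replicate 2 (rank 59) and 595 in the pool (rank 78). Its summit lay 41 bp downstream of the nearest start of mRpL23 and 91 bp from the start of CG9004, which is 50 bp away head to head. These 4 genes were high in both replicates, with log2 ratios of replicate 1 to replicate 2 of 0.03 for mRpS10, 0.49 for mRpS23, 0.24 for mRpL41 and 0.05 for mRpL23.

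The 4 genes that followed had pooled signals of 151 to 189. mRpL34 (FBgn0083983) gave 109 (rank 896) in replicate 1, 84.8 (rank 1054) in replicate 2 and 189 (rank 980) in the pool, with the summit 235 bp upstream and 149 bp from the start of Dg, the dystroglycan gene. mRpL47 (FBgn0014023) gave 103 (rank 1003), 70.1 (rank 1508) and 181 (rank 1044) in the same order, with the summit 85 bp upstream and 14 bp from the start of CG8176; the start of Kdm3, a histone demethylase gene, was also within 500 bp. mRpL18 (FBgn0026741) gave 94.5 (rank 1154), 81.2 (rank 1151) and 173 (rank 1145), with the summit 186 bp upstream of its start and 166 bp from that of Taz, which encodes tafazzin, an enzyme that remodels the mitochondrial lipid cardiolipin. At mRpL34, mRpL47 and mRpL18 the summit was nearer the neighbour.

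mRpL53 (FBgn0050481) showed the least even replicates among the thresholded genes. Its signal was 110 (rank 881) in replicate 1, 43.8 (rank 3505) in replicate 2 and 151 (rank 1435) in the pool, a log2 ratio of 1.33. The summit lay 44 bp upstream of a start it shares with CG33155, and AGO1, which encodes the Argonaute protein of the microRNA pathway, starts head to head nearby. Replicate 1 was thus the higher of the replicates at this promoter.

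The other 10 thresholded genes of the large subunit lay between 84.4 and 147 in the pool. mRpL24, mRpL21, mRpL4, mRpL32 and mRpL42 had pooled signals of 147, 142, 142, 139 and 137, and mRpL54, mRpL51, mRpL35, mRpL16 and mRpL33 had 113, 107, 105, 100 and 84.4. mRpL4 is a homologue of a protein that forms part of the peptide tunnel wall in bacteria. Its signal was 70.2 in replicate 1 and 75.6 in replicate 2, its summit lay 125 bp upstream, and it was the only thresholded member with no other gene's start within 500 bp of the summit. mRpL32, whose yeast and mouse counterparts are matured by the m-AAA protease of the inner membrane, had signals of 58.8 and 88.4. Its summit lay 133 bp upstream and 131 bp from the start of qless, a gene of coenzyme Q synthesis, almost midway between the starts, which are 264 bp apart. mRpL16 had signals of 59.9 and 41.5, with its summit 148 bp upstream and 158 bp from trr, which encodes a histone methyltransferase.

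Several neighbours in this group are known genes in their own right. mRpL24 faces betaggt-I, a gene for a subunit of a protein prenylation enzyme whose start was 52 bp from the summit, and mRpL21 faces rept, the gene of the ATPase Reptin, at 42 bp. mRpL35 faces Mitofilin, which organises the cristae of the inner membrane, with the summit 105 bp from mRpL35 and 87 bp from Mitofilin. mRpL51 faces Uba4, mRpL54 faces CG15653 and mRpL42 faces PIG-N, with the summit 84, 47 and 173 bp from these starts. mRpL42 was a case with the summit inside the member, 37 bp downstream of its start. The neighbour was thus nearer the pooled summit at mRpL24, mRpL21, mRpL35, mRpL51 and mRpL54. At mRpL35 replicate 1 had an offset of -92 bp, nearer the member, with the starts 192 bp apart.

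mRpL33 was the weakest thresholded gene. It had a signal of 46.0 (rank 4009) in replicate 1 and no candidate with its summit in the window in replicate 2, and its pooled summit lay 426 bp upstream, 31 bp from the start of norpA, the phospholipase C gene of phototransduction. A replicate 2 peak did overlap the pooled peak, with a signal of 56.4 (rank 2311), but its summit fell outside the window. The missing value in replicate 2 was thus one of summit position.

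In the small subunit, 7 of 26 genes were thresholded. Beside mRpS10 and mRpS23 these were mRpS2 with a pooled signal of 151, mRpS11 with 135, mRpS31 with 111, mRpS16 with 103 and mRpS7 with 92.9. mRpS2 had signals of 78.6 and 75.7 in replicates 1 and 2, and its summit lay 219 bp upstream, 3 bp from the start of Mon1, a gene for endosome maturation. The peak counted for mRpS2 was therefore centred on the start of its neighbour. mRpS11 had signals of 72.9 and 62.1, and its summit lay 50 bp inside the gene and 107 bp from Ns1, which encodes a nucleostemin-type GTPase. mRpS16 had 73.9 and 38.2 with the summit 28 bp from cg, a zinc finger protein gene and 125 bp from its own start. mRpS31 had 44.4 and 64.9 with the summit 77 bp upstream and hzg at 380 bp, and mRpS7 had 30.9 and 60.5 with the summit 175 bp upstream and Cdk1, the mitotic kinase gene, at 225 bp. mRpS31 and mRpS7 were higher in replicate 2, and mRpS16 in replicate 1.

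In the large subunit 43 of 47 genes had a candidate and 16 of these (37.2%) were thresholded, and the 43 had a median pooled signal of 73.2. In the small subunit 22 of 26 had a candidate and 7 (31.8%) were thresholded, and the 22 had a median of 68.8. Genes numbered as in bacteria, up to 36 in the large and 21 in the small subunit, comprised 42 members, of which 37 had a candidate and 15 (40.5%) were thresholded; the 37 had a median signal of 75.1. Of the 31 others, 28 had a candidate and 8 (28.6%) were thresholded; the 28 had a median of 52.0. The Wilson intervals of these last shares, 26.3 to 56.5% and 15.3 to 47.1%, overlap, and the split was chosen after values were seen. The 73 genes were spread over 5 chromosome arms, and 6 of 12 were thresholded on 2L, 7 of 12 on 2R, 3 of 17 on 3L, 5 of 21 on 3R and 2 of 11 on X. The thresholded shares of all protein-coding genes on these arms were 18.4%, 19.7%, 20.1%, 21.5% and 17.7% in the same order, and the small numbers of members per arm allow no reading of a difference between arms.

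Below the threshold, 42 genes had pooled signals from 18.8 to 80.7 with a median of 48.2, and 14 of them lay between 60 and the threshold. Just under it was mRpL1, the homologue of the bacterial stalk protein at the tRNA exit, with a pooled signal of 80.7 at rank 4155; the weakest thresholded member, mRpL33, had rank 3902. mRpL1 had signals of 38.5 and 48.1 in replicates 1 and 2, and its summit lay 7 bp upstream of its own start and 455 bp from CG9626. mRpL37 followed with 51.0, 31.7 and 77.9 in replicate 1, replicate 2 and the pool, with its summit 70 bp upstream. mRpS18C, which with mRpS18A and mRpS18B forms a family of homologues of one bacterial protein, gave 39.9, 36.3 and 76.4, with the summit 9 bp from CG15535. mRpL36 gave 43.9, 29.6 and 75.2 with the summit 155 bp inside the gene, and mRpS6 gave 32.2, 46.5 and 75.1 with the summit 5 bp downstream of its start. Of these 5 genes, mRpL1, mRpL37, mRpL36 and mRpS6 had their summits nearer their own starts than any neighbour's. The 5 were taken by signal and do not stand for the 42 below the threshold.

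The mRpS18 genes ran from near the threshold to no pooled candidate. mRpS18A had 20, 29.4 and 50.7 in replicate 1, replicate 2 and the pool, and mRpS18B had a candidate only in replicate 2, at 31.5 (rank 6020). The stalk gene mRpL12, whose bacterial homologue recruits translation factors to the ribosome, had 22.8, 22.2 and 45.8, and mRpL10, whose bacterial homologue anchors the stalk, had 22.1 in replicate 1 and no candidate in replicate 2 or the pool.

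For 8 genes the window around the start held no summit of a pooled candidate. These were mRpL10, mRpL14, mRpL15 and mRpL46 of the large subunit and mRpS5, mRpS18B, mRpS29 and mRpS35 of the small subunit. mRpS29 is the counterpart of the human GTPase DAP3. The nearest pooled summit was 508 bp away at mRpS29, 566 bp at mRpS5 and 632 bp at mRpL46, so these lay just outside the window. It was 1185 bp away at mRpS18B, 1448 bp at mRpS35, 1516 bp at mRpL14, 3114 bp at mRpL15 and 3479 bp at mRpL10. Each of the 8 had a candidate in at least 1 replicate, with signals from 11.9 at mRpL14 to 31.5 at mRpS18B. Every one of the 73 members was thus in at least 1 of the candidate lists. The like share of all protein-coding genes was not counted, so this is not given as a trait of the set.

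**Figure D3:**
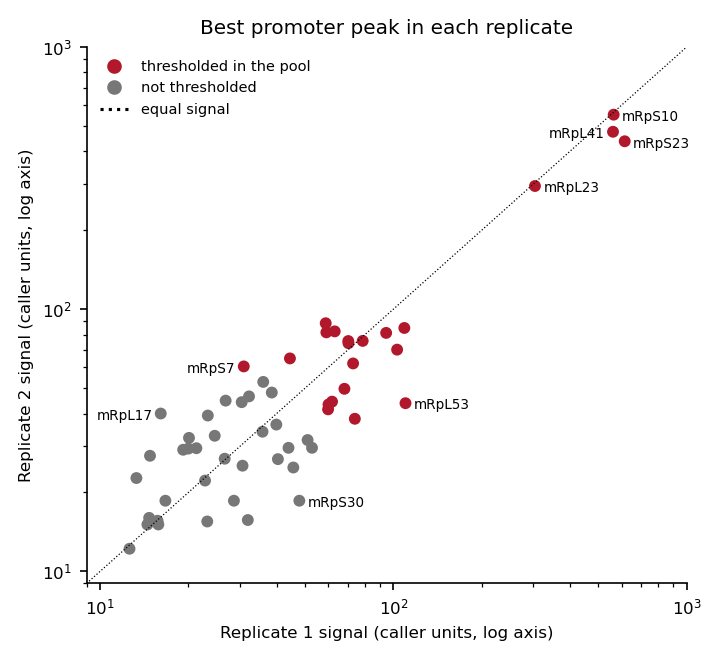
Signal of the best promoter peak in replicate 1 against replicate 2 (caller units, log axes) for the 56 mitochondrial ribosomal protein genes with a candidate in both, with equal signal as a dotted line. The 4 strongest genes stand apart near the line, and mRpL53 and mRpS30 (higher in replicate 1) and mRpL17 and mRpS7 (higher in replicate 2) lie away from it.

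Candidates were found at 63 genes in replicate 1, at 65 in replicate 2 and at 56 in both. Over these 56 the log2 ratio of replicate 1 to replicate 2 had a median of 0.04 and an SD of 0.60, with a range from -1.31 at mRpL17 to 1.36 at mRpS30, and over 6596 protein-coding genes it had a median of 0.23 and an SD of 0.64. The rank correlation between replicates was 0.78 over the 56 members and 0.76 over the 6596 genes, as a description across genes that share the libraries. Without the 4 strongest genes it was 0.73 over 52 members, and over the 22 thresholded members with a candidate in both replicates it was 0.47. The thresholded members were cut by pooled signal, and a narrowed range can by itself lower a rank correlation. The like value over all thresholded genes was not counted, so 0.47 is not read as poorer agreement. Summits of the replicates were a median of 56 bp apart, and 26 of 56 pairs lay within 50 bp. Over all protein-coding genes the median was 59 bp, and 3036 of 6596 pairs lay within 50 bp. The plot of the replicates shows the 4 strongest members close to equality and a wider scatter below.

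The strongest 4097 peaks of each replicate were used to see which replicate carried a gene. Of the members, 25 lay in that top set in replicate 1 and 28 in replicate 2, and 19 in both, against 19.7%, 19% and 14.7% of all 13968 protein-coding genes. All of these 19 members were thresholded. Of the other 4 thresholded genes, mRpS16 and mRpL33 reached it in replicate 1 only, and mRpS31 and mRpS7 in replicate 2 only. A further 11 members reached it in 1 replicate without being thresholded, as did 4.66% of all protein-coding genes in at least 1 replicate. These were mRpL37, mRpL11, mRpS30 and mRpL9 in replicate 1, and mRpL1, mRpS6, mRpL13, mRpL17, mRpL20, mRpL50 and mRpS22 in replicate 2. The widest gaps were at mRpL17, with 16.1 (rank 20868) in replicate 1 and 40.0 (rank 4088) in replicate 2, and at mRpS30, with 47.8 (rank 3778) and 18.6 (rank 12781). At mRpL17 the pooled summit lay 415 bp upstream and 16 bp from the start of Tudor-SN, and a stronger replicate 1 peak of 33.4 (rank 6623) overlapped the pooled peak with its summit outside the window. Window and summit position thus entered the difference between replicates at this gene.

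**Figure D4:**
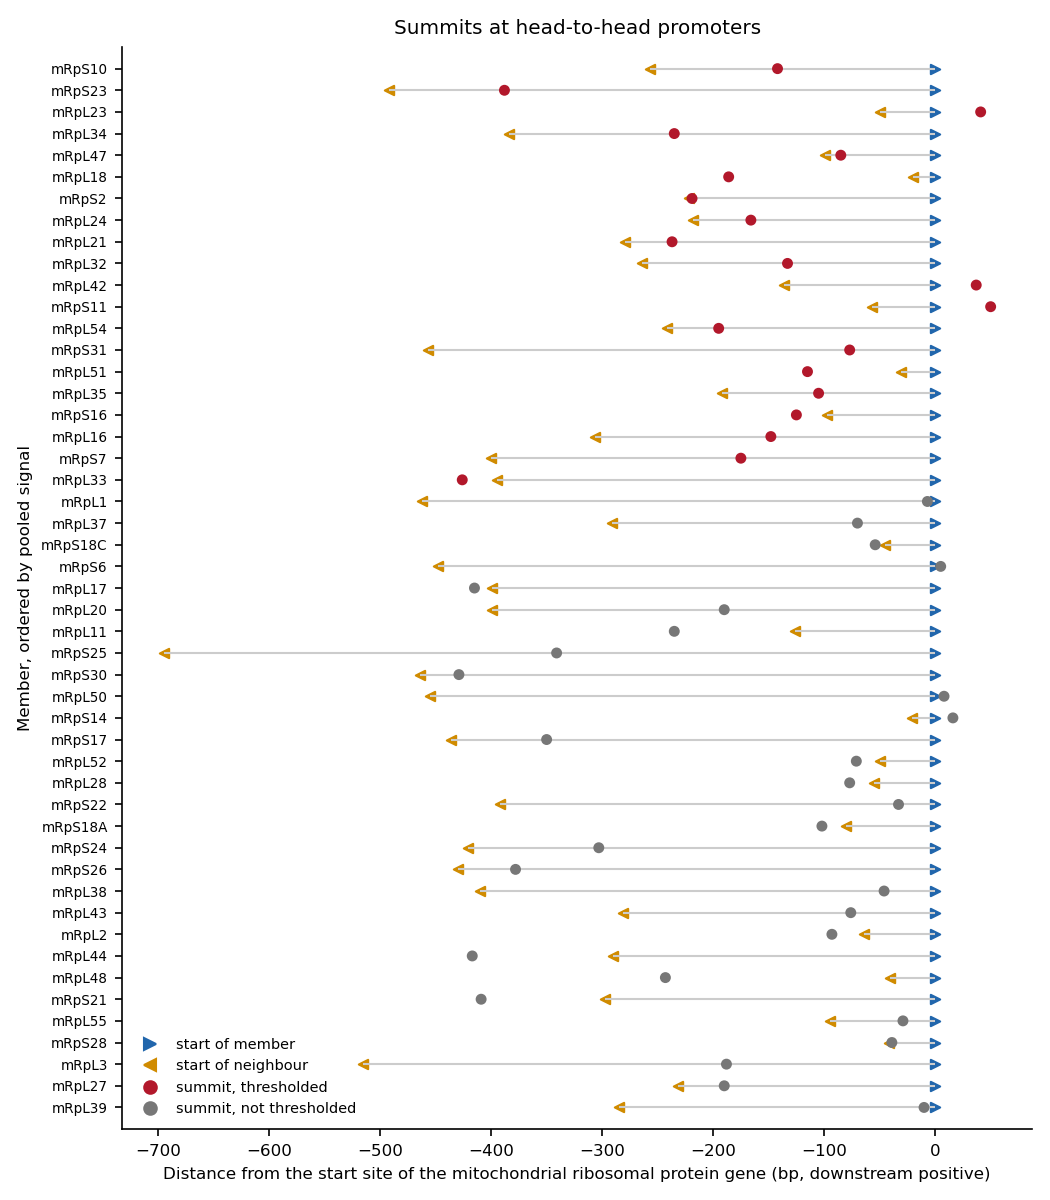
Distance in bp from the start of each of the 49 mitochondrial ribosomal protein genes whose nearest sharing gene is transcribed head to head (downstream positive), with the start of the member (right-pointing triangle), the start of the neighbour (left-pointing triangle) and the pooled summit (circle, red where thresholded). Summits lie between the starts at 29 of the 49 and nearer the neighbour at 30.

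Most of these genes share their promoter region, and the peak could not be given to the member alone. By annotation, 51 of the 73 members (69.9%) had a protein-coding gene starting head to head within 500 bp upstream, against 24.9% of all protein-coding genes. Of the 65 best peaks, 53 (81.5%) had the start of another gene within 500 bp of the summit, against 45.2% of all protein-coding genes with a candidate. Of the 23 thresholded members this held for 22 (95.7%), against 57.2% of thresholded protein-coding genes. The nearest such gene was head to head at 49 members, in the same direction at 4 and absent at 12. Head-to-head starts were a median of 279 bp apart, from 20 bp at mRpL18 and Taz to 695 bp at mRpS25 and nmdyn-D6.

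Within the 49 head-to-head pairs drawn in the plot of summit positions, the summit was a median of 133 bp from the member and 107 bp from the neighbour. The pooled summit lay nearer the neighbour at 30 pairs and nearer the member at 19. Replicate summits were a median of 56 bp apart over the members, and some of these calls rest on smaller gaps. At mRpL32 the distances were 133 bp to the member and 131 bp to the neighbour, and replicate 1 had an offset of -63 bp, nearer the member. The calls were not counted in the separate replicates. Over all protein-coding genes with a shared head-to-head peak the summit was nearer another gene in 50%. Both genes of a pair are counted there, so a share near 50% follows from the counting and is no measured background. The summit was between the starts at 29 pairs, inside the member at 6 and inside the neighbour at 14. These positions were not counted over all protein-coding genes. Of the 20 thresholded head-to-head pairs, 14 had the summit nearer the neighbour, among them mRpS10, mRpS23, mRpL34, mRpL47 and mRpS2, and 6 nearer the member, among them mRpL23, mRpL42 and mRpS11. Whether the member, the neighbour or both are tied to the bound protein cannot be told apart from these lists.

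Peaks with no other gene nearby had lower median signal than shared ones, in the members and over all genes. The 53 shared peaks of the members had a median signal of 75.1, and 22 of them (41.5%) were thresholded. Over all protein-coding genes the shared peaks had a median of 73.7, and 44.6% were thresholded. The 12 unshared peaks of the members had a median signal of 33.8, and only that of mRpL4 (8.33% of the 12) was thresholded. Over all protein-coding genes the unshared peaks had a median of 50.6, and 27.5% were thresholded. Where each peak was given to the gene with the nearest start alone, 41 members kept a candidate and 9 of these (22%) were thresholded, against 30.7% of all protein-coding genes treated likewise. The count of 23 thus includes 14 promoters whose summit was nearer another gene.

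Summits lay mostly upstream. The median offset from the start was -105 bp with quartiles of -219 and -27, against -56 bp with quartiles of -180 and 33 over all protein-coding genes with a candidate. Of the 65 summits 52 were upstream, as were 20 of the 23 thresholded ones. Summits more than 300 bp away numbered 13, of which mRpS23 and mRpL33 were thresholded, and in both the neighbour was closer. Summits upstream or more than 300 bp away were not counted over all protein-coding genes.

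**Figure D5:**
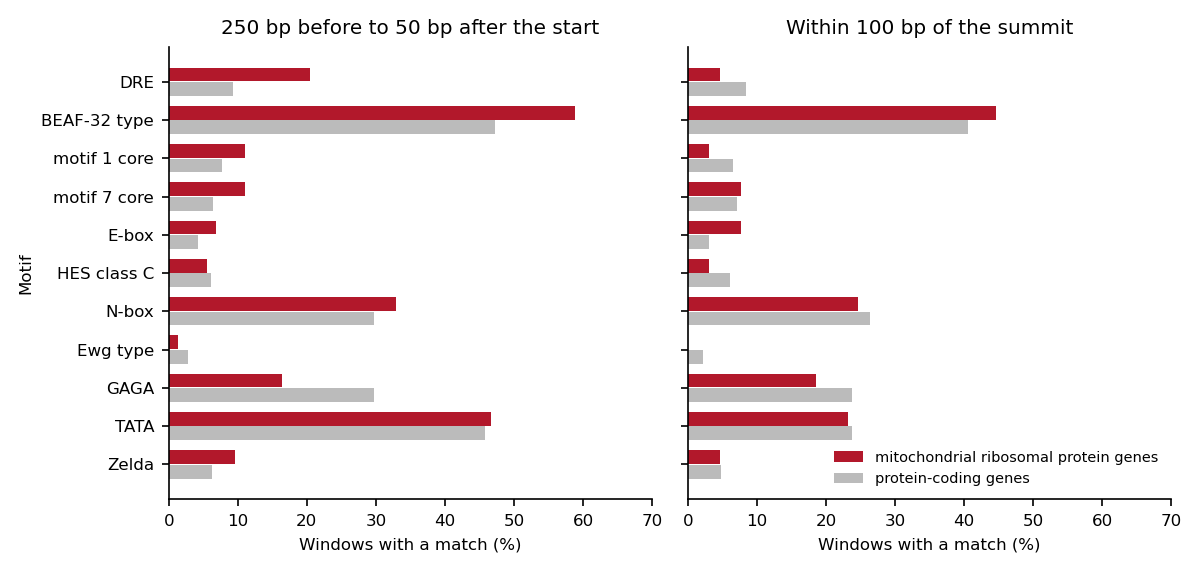
Share of windows (%) with at least 1 match to each motif, from 250 bp before to 50 bp after the outermost start (left, 73 members and all protein-coding genes) and within 100 bp of the pooled summit (right, genes with a candidate). DRE matches were in 20.5% of member promoters and 9.36% of all promoters, but in 4.62% of member summit windows and 8.43% of all summit windows.

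Motif matches were counted on both strands from 250 bp before to 50 bp after the outermost start. The DRE (TATCGATA), a core promoter element bound by DREF at housekeeping genes, was present in 15 of 73 promoters (20.5%), against 9.36% of all protein-coding promoters. Among thresholded members it was in 4 of 23 (17.4%), against 14.6% of thresholded protein-coding genes and 22% of the other members. The shorter CGATA, which the DRE contains and which is of the type bound by the insulator protein BEAF-32, was in 58.9% against 47.3%. The core promoter motifs GGTCACAC (motif 1 core) and CATCNCTA (motif 7 core) were each in 8 promoters or 11%, against 7.69% and 6.41%. GAGAG, the repeat bound by GAGA factor, was in 16.4% against 29.7%. CAGGTA, the site of the early embryonic activator Zelda, was in 9.59% against 6.24%, and TATAAA, the TATA box, in 46.6% against 45.8%. These shares are descriptions of windows, and no match says only that these letters are absent from the window.

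The DRE matches found in the promoter window sat mostly near the starts. Of the 16 matches in the 15 promoters, 14 (87.5%) began within 50 bp of the start, against 55.2% of 1451 matches over all protein-coding promoters. In the 12 of these genes with a candidate, the distance to the pooled summit was taken from the nearest match in the promoter window. It was a median of 165 bp and no more than 100 bp in 2 genes (16.7%), mRpL19 and mRpL39. Over 1100 protein-coding genes with a DRE and a candidate the median was 103 bp and the share within 100 bp was 48.9%. A DRE outside the promoter window was not seen here, and at mRpS23 and mRpL17 the summit lay too far upstream for any match within 100 bp. These distances therefore cannot show that summits lack a DRE. The direct search within 100 bp of the summit found one at 3 of 65 members (4.62%), against 8.43% of all protein-coding genes with a candidate. Thresholded members with a DRE were mRpS23, mRpL4, mRpL32 and mRpL16, or 4 of 12, against 36.4% of the protein-coding genes. In the sequences printed above, the nearest match was 182 bp from the summit at mRpS23, 110 bp at mRpL32 and 120 bp at mRpL16, and at mRpL4 it was 148 bp. None of the 23 thresholded members had a DRE within 100 bp of its summit, against 9.33% of thresholded protein-coding genes. The set is too small to read a difference from this.

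Proteins of the HES family, to which Sidpn belongs, are known to bind the class C site CACGCG and the N-box CACNAG. Within 100 bp of the summit CACGCG was found at 2 of 65 members (3.08%) against 6.10% of all protein-coding genes with a candidate. CACNAG was found at 16 of 65 (24.6%) against 26.3%. The E-box CACGTG was found at 5 of 65 (7.69%) against 3.06%. The counts for CACGCG and CACGTG are too small to read a difference from them. At mRpL16 an E-box lay 34 bp from the summit, and at mRpL23 an E-box began 1 bp after the outermost start, 64 bp from the summit, with a CACGCG 290 bp from the summit. At mRpS10, the strongest member, neither of the HES-type sites nor an E-box lay in the promoter window.

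Other genes of mitochondrial translation and transcription were taken as a list of 23 symbols, of which 19 matched the annotation. Of these 16 had a pooled candidate and 1 (6.25%) was thresholded, and the median signal was 50.8. The thresholded gene was tko, which encodes the mitochondrial ribosomal protein of the S12 family and is not named mRpS. tko had signals of 47.7 and 46.8 in replicates 1 and 2 and 101 in the pool, with its summit 34 bp upstream and no neighbour in the window. mRF1, a release factor gene, and PolrMT, the mitochondrial RNA polymerase gene, followed below the threshold at 76.7 and 75.2. bonsai, the S15 gene, had 39.6, and mRRF1, mRRF2 and mIF3 had no pooled candidate. The median of this list was below that of the mRpL and mRpS genes (50.8 and 70.9), a difference given without a test.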

How the data were processed

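Peak lists from ChIP-seq on 2 biological replicates of 1 group were used. The authors deposited narrow peak lists on dm6 whose column 7 holds the signal of each peak and whose column 10 holds the summit as a distance from the start of the peak. Per the file records, every candidate list (each replicate and the pool) used a single control in common and fed the IDR step, and the optimal list holds the peaks past its threshold. The sources used here give no peak caller, aligner, IDR threshold or read total, so depth is unknown. Lists on dm3 were not used.

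Start sites came from Ensembl release 115 (annotation 6.54) and sequence from RefSeq Release 6, both in dm6 coordinates, 1-based. The summit was column 2 plus column 10. For each gene the peak of highest signal with a summit within 500 bp of a start was kept in each list with Python 3.11.15, pandas 2.3.3 and numpy 2.4.6, and the procedure was checked on simulated data. With 1 group no test was run: counts, medians and correlations are descriptions, beside the same over all protein-coding genes, and Wilson intervals (95%, scipy 1.17.1) cover counting error only. Named genes were every member with a thresholded peak, the 8 strongest of them in full, the 5 strongest below the threshold, all without a pooled candidate, all in the strongest 4097 of 1 replicate only, and, in the list of other mitochondrial genes, the thresholded gene and the 2 next. mRpL12, mRpS18A, mRpL19, mRpL39, mRpS25, bonsai and the genes of that list without a candidate were named after their values were seen. The members and lists were chosen with earlier results of these data known, and the split by bacterial number, the cytosolic comparison and the printed promoters were added after values were seen. The name of 1 neighbouring gene is not reported here. Alternatives were windows of 200 and 1000 bp, each replicate alone, the 1000 strongest peaks, the outermost start, and the nearest or sole gene.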

Additional observations from a re-analysis of the deposited data

How the results depend on the processing

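The count of thresholded members, 23, was 18 and 24 with windows of 200 and 1000 bp and 25 to 28 in the strongest 4097 peaks of a single replicate. With the 1000 strongest peaks it was 5 (7.69% of the members with a candidate, against 9.93% of all protein-coding genes), of them 3 of the large and 2 of the small subunit, and 0 in the other mitochondrial list. Given to the nearest gene alone, peaks left 41 members with a candidate and 9 thresholded (22% against 30.7%), 6 large and 3 small. Where only peaks with a sole gene in the window counted, 15 members kept a candidate, with a median signal of 27.5, and 1 was thresholded (6.67% against 25.2%), 1 large and 0 small. The median signal was 32.9 to 35.8 in single replicates, whose lists have their own scales. Shared best peaks fell from 53 to 26 with the window of 200 bp, which also narrows the search for neighbours. The other mitochondrial list had 1 to 3 genes in the strongest 4097 peaks of a single replicate, 3 without replicate 1. Of the members with a candidate, 43.1% were in the strongest 4097 peaks without replicate 1, against 34.3% of all protein-coding genes with a candidate. Without replicate 2 the shares were 39.7% and 36.1%. This cut in a single replicate is not the authors' IDR threshold. No paired analysis was possible because the series has 1 group. Unknown depth limits all signals, and a candidate list of fixed length limits which genes have a value.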
